A study of Mus musculus with 27 samples.

Results

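Undifferentiated cells of 19BL, a mouse induced pluripotent stem (iPS) line made with 4 transcription factors and called 4F, were compared with undifferentiated cells of R1, a mouse embryonic stem (ES) line. The comparison rests on the 3 arrays titled as undifferentiated 19BL and the 3 titled as undifferentiated R1, which are 6 of the 27 arrays of the series, and on 18193 genes. The other arrays used here are undifferentiated cells of H9, a mouse iPS line made with 3 factors and called 3F (3 arrays), and 4F and R1 cells after 5 and 11 days as embryoid bodies (3 arrays each). All undifferentiated cells, R1 included, had grown on mitomycin-inactivated feeder cells in medium with leukemia inhibitory factor (LIF), and differentiation proceeded in embryoid bodies, without LIF and with fetal serum. Each group is 1 cell line, so the number of reprogramming factors, the origin of the line and its culture history cannot be told apart. The factors used, the genetic background of the lines and any step that removed feeder cells before RNA extraction are not given in the sources used here.

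Pluripotent stem cells renew themselves and can form all tissues of the embryo. LIF acts through its receptor and STAT3 to keep mouse cells in the naive state, which is marked by Klf4, Esrrb, Tbx3 and Tfcp2l1, while Fgf5 marks the later, primed epiblast. Interferons act through receptors and a complex that contains IRF9, which binds interferon-stimulated response elements and switches on antiviral genes such as Ifit1, Oasl2 and Usp18. Pluripotent mouse cells are known for a weak interferon response, whereas the fibroblasts used as feeders respond and also secrete proteases and chemokines. The comparison addresses how the starting cells of the iPS line stood against the ES cells before differentiation began.

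Markers of pluripotent cells were high on all 6 arrays. The mean log2 level of 10 such markers was 12.68, 12.52 and 12.14 in R1 and 12.73, 12.94 and 12.77 in 4F (replicates 1, 2 and 3). The mean of 12 markers of fibroblasts and feeder cells, described below, was 8.70 to 9.46 in R1 and 9.23 to 10.27 in 4F. R1 replicate 1 stood apart from the other R1 arrays. The SD of the log2 difference over all genes was 0.455 and 0.483 between it and R1 replicates 2 and 3, 0.295 between those, and 0.246 to 0.315 between 4F arrays. On the first principal component of the 6 arrays, which held 56.0% of the variance, R1 replicate 1 scored 11.4, among the 4F arrays (10.9 to 35.1), and the other R1 arrays scored -35.1 and -40.2. Its index of RNA integrity, the log2 signal of 3′ minus 5′ control probe sets (higher where RNA is more degraded), was 1.18, against 1.48 and 1.70 in the other R1 arrays and 1.21 to 1.43 in 4F. With this index as a covariate, 188 genes were called in the main comparison, against 204 without it. Counts of the main comparison, and of some gene lists, are therefore given with and without R1 replicate 1. The labels call the replicates biological and do not say whether they were separate cultures, so p-values measure the spread between these samples.

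A gene is called here where limma's moderated test, fitted over all 27 arrays, gave a Benjamini-Hochberg adjusted p below 0.05 over all 18193 genes and the difference was at least 2-fold. Differences are 4F minus R1 on the log2 scale with their standard error (SE, 3 arrays against 3, from the spread pooled over all 27 arrays). Interferon-response genes, matrix metalloproteinases and chemokines led the genes that were higher in 4F, up to 21.9-fold for Usp18. Among the largest falls were the interferon-induced GTPase Gbp2b (17.5-fold), the lysine-degrading enzyme Aass, Fmr1nb, Fgf5 and Dpys. X-linked genes of the Rhox cluster and Y-linked genes were also lower, and simple keratins fell by less. In all, 204 genes were called (1.12% of those tested), 117 of them higher in 4F (0.643%) and 87 lower (0.478%). For 199 of the 204, the 3 arrays of each line did not overlap, which was so for 17.1% of all genes. The median difference over all genes was -0.01, and 2390 of the 18193 genes had an unadjusted p below 0.05. Counts of list members at that unadjusted level, given below, are to be set beside this share. In these bulk samples, more cells of a type and more RNA per cell cannot be told apart. Without R1 replicate 1, 449 genes were called (2.47%), 303 higher (1.67%) and 146 lower (0.803%), and 189 of the 204 were among them. Without 4F replicate 1, 131 genes were called, 71 of them higher, and without R1 replicate 3 the higher genes also came to 71. With the replicate numbers as a block and only these 6 arrays, 133 genes were called lower. There were 94 genes that kept their call when each of the 6 arrays was left out in turn.

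**Figure D1:**
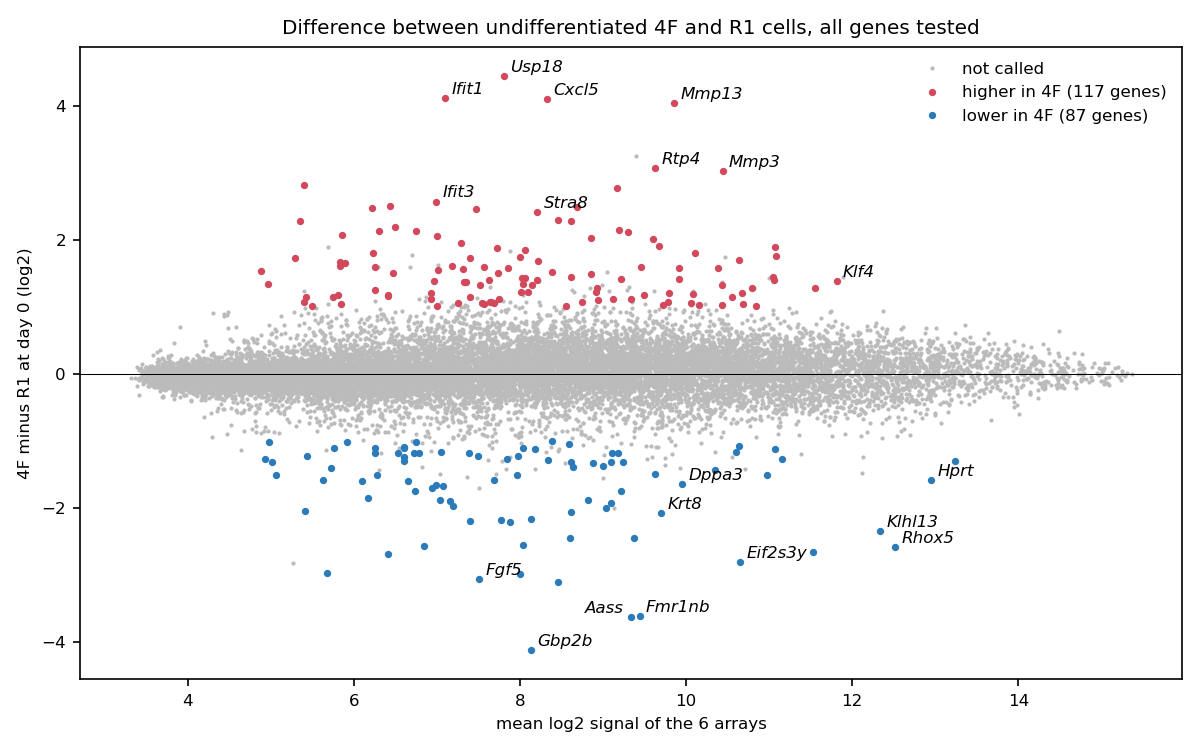
Each point is a gene, placed by its mean log2 signal on the 6 arrays (horizontal axis) and its difference 4F minus R1 in undifferentiated cells (vertical axis, log2). Red points are the 117 genes called higher in 4F and blue points the 87 called lower. Usp18, Cxcl5, Ifit1 and Mmp13 lie highest, at 4.45, 4.10, 4.11 and 4.04, and Gbp2b lies lowest, at -4.13.

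The interferon-response genes formed the clearest group. Usp18, a protease that removes the ubiquitin-like modifier ISG15 and restrains interferon signalling, measured 5.63, 5.34 and 5.77 in R1 and 10.47, 9.99 and 9.64 in 4F. Ifit1, which binds viral RNA, measured 5.02, 5.33 and 4.78 in R1 and 9.84, 8.75 and 8.87 in 4F. All 4F arrays lay far above all R1 arrays for both genes. The differences were 4.45 ± 0.52 (adjusted p = 1.43e-05) for Usp18 and 4.11 ± 0.41 (17.3-fold, adjusted p = 1.4e-06) for Ifit1, by limma. Ifit3, which partners Ifit1, was 5.95-fold higher (2.57 ± 0.24, limma adjusted p = 3.87e-07), from 5.60 to 5.80 in R1 and 8.03 to 8.45 in 4F.

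Interferon-stimulated genes often carry the response element GAAANNGAAA in their promoters. RefSeq windows (GRCm38.p6) from 250 bases before to 50 bases after each gene's start, 300 bases in all, were searched for these letters on both strands (TTTCNNTTTC on the other strand; matches could overlap). The letters occurred in 523 of the 14368 measured genes with a window (3.64%), in 15 of 87 called higher in 4F (17.2%) and in 4 of 71 called lower (5.63%). Of the interferon list, 13 of 23 genes with a window held them. Windows are printed 5′ to 3′ in the direction of the gene, with the motif in capitals, for genes that differ in response: Ifit1 and Ifit3, with large rises, the neighbours Igtp and Irgm2, with smaller rises, and Gbp2b, which was lower in 4F although its window holds the motif. They lie as follows: Ifit1 at chr19:34640639-34640938 on the plus strand, Ifit3 at chr19:34583279-34583578 on the plus strand, Igtp at chr11:58199306-58199605 on the plus strand, Irgm2 at chr11:58214727-58215026 on the plus strand and Gbp2b at chr3:142594597-142594896 on the plus strand.
Ifit1: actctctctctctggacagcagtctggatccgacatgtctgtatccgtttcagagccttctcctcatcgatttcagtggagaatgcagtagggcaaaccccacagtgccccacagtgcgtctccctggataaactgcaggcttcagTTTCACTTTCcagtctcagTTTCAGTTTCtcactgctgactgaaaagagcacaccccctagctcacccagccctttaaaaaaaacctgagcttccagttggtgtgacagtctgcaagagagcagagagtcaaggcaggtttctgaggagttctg
Ifit3: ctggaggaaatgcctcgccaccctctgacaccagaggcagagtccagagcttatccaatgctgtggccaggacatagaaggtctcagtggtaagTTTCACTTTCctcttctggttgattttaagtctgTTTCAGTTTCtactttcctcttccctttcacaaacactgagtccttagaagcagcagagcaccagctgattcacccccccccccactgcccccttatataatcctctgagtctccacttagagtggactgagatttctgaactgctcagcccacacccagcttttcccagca
Igtp: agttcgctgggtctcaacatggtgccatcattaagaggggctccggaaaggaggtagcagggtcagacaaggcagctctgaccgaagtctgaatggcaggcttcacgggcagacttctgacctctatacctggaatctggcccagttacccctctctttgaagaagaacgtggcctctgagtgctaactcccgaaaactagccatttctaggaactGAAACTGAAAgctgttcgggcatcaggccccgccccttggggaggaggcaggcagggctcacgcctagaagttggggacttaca
Irgm2: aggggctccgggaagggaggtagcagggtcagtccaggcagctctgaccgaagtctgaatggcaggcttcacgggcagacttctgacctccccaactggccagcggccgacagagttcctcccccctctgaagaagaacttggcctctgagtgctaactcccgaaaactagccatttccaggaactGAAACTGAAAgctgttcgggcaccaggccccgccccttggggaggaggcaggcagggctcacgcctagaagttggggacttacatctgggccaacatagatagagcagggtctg
Gbp2b: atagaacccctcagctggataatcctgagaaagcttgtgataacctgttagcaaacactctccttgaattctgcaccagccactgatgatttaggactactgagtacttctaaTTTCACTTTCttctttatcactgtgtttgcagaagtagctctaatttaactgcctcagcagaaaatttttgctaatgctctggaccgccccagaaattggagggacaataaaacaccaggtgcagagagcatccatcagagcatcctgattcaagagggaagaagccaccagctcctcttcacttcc
Ifit1 and Ifit3 each hold 2 copies, and Igtp, Irgm2 and Gbp2b hold 1. Xaf1, Oasl2 and Irf9 were called higher with no match in their windows. A match describes the letters and is not a tested binding site, and a missing match says only that these letters are not in the window.

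Further interferon-response genes were higher in 4F. Rtp4, a chaperone of receptors induced by interferon, measured 7.32, 8.44 and 8.49 in R1 and 11.45, 11.21 and 10.82 in 4F (3.08 ± 0.27, 8.44-fold, limma adjusted p = 2.29e-07). Oasl2, a relative of the oligoadenylate synthetases that sense double-stranded RNA, measured 4.97, 5.35 and 5.23 in R1 and 8.50, 7.67 and 6.87 in 4F (2.50 ± 0.36, limma adjusted p = 0.000194). Xaf1, which promotes apoptosis, measured 6.58, 5.98 and 6.17 in R1 and 9.17, 8.96 and 7.97 in 4F (2.46 ± 0.23, limma adjusted p = 4.65e-07). No array of either line overlapped for these genes, and 4F replicate 3 was the lowest of the 4F arrays for each. Irf9, the DNA-binding part of the interferon-activated complex, was 2.69-fold higher (1.43 ± 0.21, limma adjusted p = 0.000226). Stat2, a signal transducer of interferon receptors, differed by 0.41 ± 0.15 and did not pass (adjusted p = 0.196). Rtp4 and Xaf1 each have another probe set, at 0.18 and 0.31, that was not called.

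Several of these genes sit beside each other in the genome. Ifi204, Mndal and Ifi202b, sensors of the Ifi200 family and neighbours on chromosome 1, were higher by 2.28 ± 0.26, 1.53 ± 0.19 and 2.11 ± 0.27, with limma adjusted p-values of 8.01e-06, 3.24e-05 and 5.57e-05. The inflammasome sensor Aim2, of the same family, was 2.03-fold lower (5.22, 5.95 and 5.31 in R1, 4.42, 4.55 and 4.44 in 4F), and fell below 2-fold without 4F replicate 1 or R1 replicate 2. Of the 4 immunity-related GTPases measured, which attack the vacuoles of intracellular parasites, Irgm1, Irgm2 and Igtp were higher by 1.58 ± 0.34, 1.74 ± 0.41 and 1.10 ± 0.29 (limma adjusted p = 0.0115, 0.0218 and 0.0453). None of these 3 GTPases kept its call when each array was left out in turn, and Igtp also lost it with the replicate block (adjusted p = 0.0527). Of 10 Oas genes, 4 were higher: Oasl2, Oas2 (2.82-fold), Oas1c and Oas1a, the last 2 not without 4F replicate 1 or 2 or R1 replicate 3. Genes of the Ifi200, Oas, Gbp and H2 families have near-identical copies, and how their probe sets share signal is uncertain. These families, and the other families counted below, were chosen after the values were seen.

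Over the list of 31 interferon and antigen presentation genes, 28 were measured, 9 were called higher in 4F and 1 lower, and the median difference was 0.87 against -0.01 over all genes. Without 4F replicate 1 the count was 5 higher and 0 lower, and without R1 replicate 1 it was 10 higher and 1 lower. With all arrays, 20 of the 28 had an unadjusted p below 0.05, against 2390 of all 18193 genes. The antigen-presenting genes B2m (2.42-fold) and H2-D1 (2.30-fold) were higher, and both lost the call without 4F replicate 1 or R1 replicate 2. The immunoproteasome subunit Psmb8 was the member that was lower: it measured 8.31, 9.61 and 9.89 in R1 and 7.89, 7.89 and 8.06 in 4F (adjusted p = 0.0496 by limma, and 0.0606 with the replicate block). It kept the call only when R1 replicate 1 was the array left out. Not all members moved: Mx1, Zbp1 and Tap1 differed by -0.04, -0.01 and -0.05, and Ifih1, a sensor of viral RNA, by 1.84 ± 0.49 with an adjusted p of 0.0515 (0.0395 with the replicate block).

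Gbp2b, a guanylate-binding GTPase usually induced by interferon gamma, went the other way and had the largest drop of any gene. It measured 9.41, 9.95 and 11.22 in R1 and 5.34, 6.00 and 6.85 in 4F (-4.13 ± 0.60, limma adjusted p = 0.000196). Its close relative Gbp2 measured 9.40, 9.89 and 11.09 in R1 and 8.26, 7.81 and 8.31 in 4F, 4.01-fold lower, which did not pass (adjusted p = 0.151, and 0.00789 with the block on the 6 arrays alone). The 2 genes shared the order of the R1 arrays, replicate 3 highest and replicate 1 lowest. Irf1, another gene induced by interferon gamma, did not pass either (-0.87 ± 0.26, adjusted p = 0.0825). Lower guanylate-binding proteins were not particular to 4F. Of 6 measured, 1 was called lower in 4F than in R1 (0.478% of all genes). In 3F minus R1, 2 of the 6 were called lower (0.879% of all genes). In 4F minus 3F, 0 were called lower and 0 higher, with a median of 0.82 against -0.01 over all genes.

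**Figure D2:**
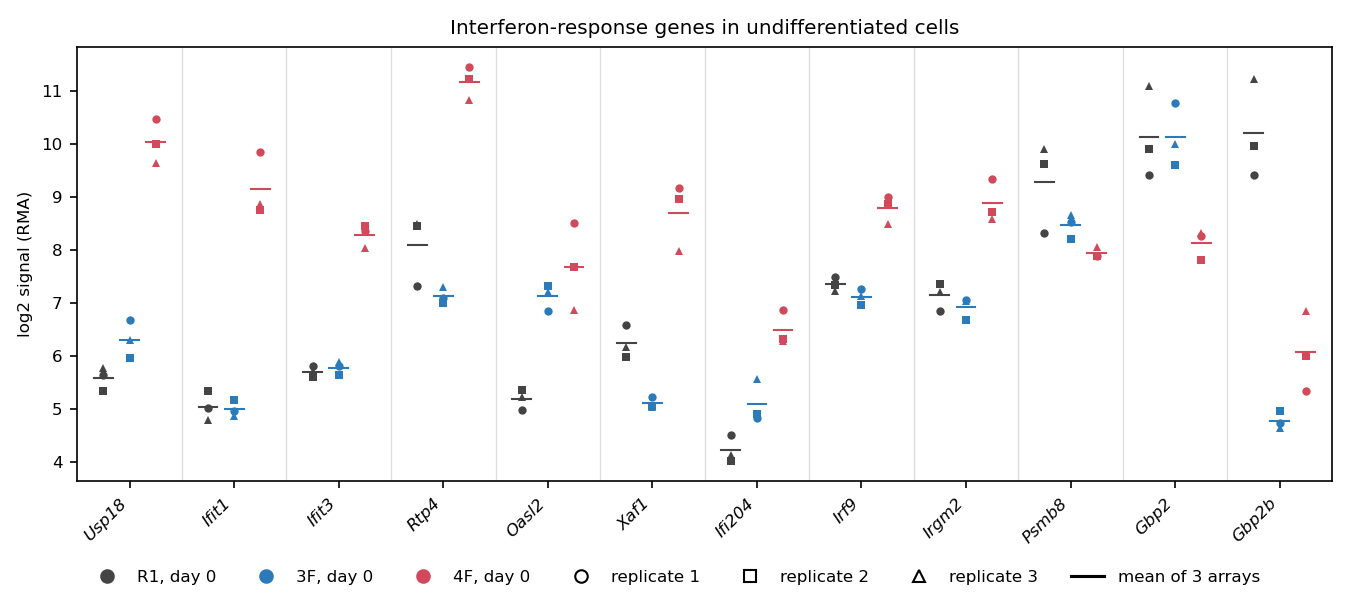
The vertical axis is the log2 RMA signal of each undifferentiated array, by line (colour) and replicate (symbol), with bars at the means of 3 arrays. The 4F arrays lie above all R1 arrays from Usp18 to Irgm2 and below them for Psmb8, Gbp2 and Gbp2b, while the 3F arrays lie near R1 for Ifit1, Ifit3 and Irf9 and near 4F for Oasl2.

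The other iPS line helps to place these differences. The 4F arrays are shared between the contrasts with R1 and with 3F, so the values are given side by side. Ifit1 measured 4.96, 5.16 and 4.86 in 3F, Ifit3 5.81, 5.64 and 5.88, and Usp18 6.67, 5.95 and 6.29, all within about 1 log2 unit of R1. Against 3F, 4F was higher by 4.16 ± 0.41 for Ifit1, 2.50 ± 0.24 for Ifit3, 3.73 ± 0.52 for Usp18 and 4.04 ± 0.27 for Rtp4 (limma adjusted p = 1.45e-06, 7.97e-07, 0.000144 and 6.12e-09). Oasl2 was the exception among the largest: 3F measured 6.85, 7.32 and 7.20, and 4F minus 3F was 0.56 ± 0.36 (adjusted p = 0.538). Markers of fibroblasts and feeder cells, described below, were highest in 3F (a mean of 10.17 to 11.00, against 9.23 to 10.27 in 4F and 8.70 to 9.46 in R1), while Ifit1, Ifit3 and Usp18 were lower in 3F than in 4F. Of the 28 interferon genes, 8 were called higher in 4F than in 3F and 0 lower, where 1.98% of all genes were called (0.885% higher, 1.09% lower). In 3F minus R1, 2 were called higher and 1 lower, where 3.09% of all genes were called (2.21% higher, 0.879% lower).

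Matrix-degrading proteases formed the second group. Mmp13, a collagenase, measured 7.64, 8.23 and 7.64 in R1 and 12.32, 11.26 and 12.06 in 4F (4.04 ± 0.32, 16.5-fold, limma adjusted p = 5.25e-08). Mmp3, a stromelysin, measured 9.66, 9.02 and 8.09 in R1 and 12.17, 11.87 and 11.83 in 4F (3.03 ± 0.46, limma adjusted p = 0.000316). Mmp10, its close relative, measured 7.39, 7.06 and 7.48 in R1 and 9.71, 9.56 and 9.55 in 4F (2.30 ± 0.18, limma adjusted p = 3.35e-08). Every 4F array exceeded every R1 array for these proteases, which lie beside Mmp12 on chromosome 9. Mmp12, the macrophage elastase, was 1.65 higher and lost its call without 4F replicate 1 (7.97, against 6.31 and 5.89 in the other 4F arrays) or with the block on the 6 arrays alone (adjusted p = 0.0766). Mmp9, a gelatinase, was 1.96 higher and lost its call without 4F replicate 1 or R1 replicate 2. Of 18 matrix metalloproteinases measured, these 5 were called and the median difference was 0.27. Tfpi2, an inhibitor of serine proteases in the matrix, was also higher (2.29 ± 0.32, limma adjusted p = 0.000155).

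A few chemokines and cytokines were also higher in 4F. Cxcl5, which attracts neutrophils, measured 6.87, 6.80 and 5.16 in R1 and 10.73, 9.57 and 10.84 in 4F (4.10 ± 0.56, 17.2-fold, limma adjusted p = 0.000109). Cxcl3, its neighbour on chromosome 5, measured 3.57, 4.26 and 4.16 in R1 and 7.88, 5.66 and 6.92 in 4F (2.82 ± 0.31, limma adjusted p = 5.76e-06). The R1 arrays lay close together for Cxcl3, whereas the 4F arrays were spread over more than 2 log2 units, with replicate 1 highest. Cxcl1, the third of these neighbours, was 1.89 higher, from 10.08 to 10.17 in R1 and 11.35 to 12.58 in 4F, but was not called without 4F replicate 1 or 3 or R1 replicate 2 or 3. Il6, a cytokine of the same receptor family as LIF, measured 8.72, 8.44 and 8.63 in R1 and 11.29, 10.01 and 10.53 in 4F (2.02 ± 0.37, limma adjusted p = 0.00282). Of 13 CXC chemokines 3 were called, and of 18 CC chemokines 0 were called by limma, with 8 at an unadjusted p below 0.05 (2390 of 18193 over all genes). Ccl2, which attracts monocytes, was the nearest, at 1.75 ± 0.47 (adjusted p = 0.0559, and 0.0245 with the replicate block).

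These proteases and cytokines are also products of fibroblasts, so markers of fibroblasts and feeder cells are set beside them. Col1a1, Col1a2, Col3a1 and Thy1 differed little and were not called. The collagens had SEs of 0.55 to 0.63, so 2-fold differences could be missed. These genes do not stand for all 12 markers. The mean of the 12 was 9.46, 8.70 and 8.72 in R1 and 10.27, 9.23 and 9.61 in 4F. Col1a1, the main fibrillar collagen, measured 9.52, 7.72 and 8.28 in R1 and 9.23, 7.98 and 8.37 in 4F, a difference of 0.02 ± 0.63. Col1a2, Col3a1 and Thy1, a surface protein of fibroblasts, differed by 0.24 ± 0.55, 0.03 ± 0.59 and 0.13 ± 0.21. The groups overlapped for all of these, and R1 replicate 1 was the highest R1 array for each. The small matrix proteoglycan Dcn was called (2.15 ± 0.41, 4.43-fold, limma adjusted p = 0.00425), from 7.88, 8.28 and 8.20 in R1 to 10.97, 10.02 and 9.82 in 4F, although its other probe set differed by only 0.08. In the list of 35 fibroblast and feeder genes, 34 were measured, 6 were called higher in 4F (Dcn, Mmp3, Il6, Cxcl1, the prostaglandin synthase Ptgs2 and the growth factor Fgf7) and 0 lower, and the median difference was 0.60. Ptgs2 lost its call without 4F replicate 1 or R1 replicate 2, and Fgf7 without 4F replicate 1 or R1 replicate 3. The count was 3 without 4F replicate 1, 6 without R1 replicate 1 and 13 with the replicate block and only the 6 arrays. Of 9 fibrillar collagens 0 were called by limma, with 1 at an unadjusted p below 0.05 and a median of 0.06.

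The summed level of the fibroblast markers differed between the arrays. The mean of 12 markers was 9.46, 8.70 and 8.72 in R1 and 10.27, 9.23 and 9.61 in 4F, and it was 10.28, 10.17 and 11.00 in 3F. The groups overlapped, as 4F replicate 2 (9.23) lay below R1 replicate 1 (9.46). Each 4F array lay above the R1 array of the same number, but the labels do not pair them. In 4F minus R1, 1 of the 12 was called (Dcn). In 3F minus R1, a contrast that shares the R1 arrays, 13 of the 34 listed genes were called higher with a median of 1.40 (-0.00 over all genes), and the fibrillar collagens had a median of 1.62. In 3F, with the highest marker level, Mmp13 measured 9.34, 9.21 and 10.76, Cxcl5 7.59, 7.82 and 8.49 and Cxcl3 4.11, 3.91 and 4.00, all below the 4F arrays. Against 3F, 4F was higher by 2.11 ± 0.32 for Mmp13, 1.30 ± 0.18 for Mmp10, 2.41 ± 0.56 for Cxcl5 and 2.81 ± 0.31 for Cxcl3 (limma adjusted p = 0.000325, 9.98e-05, 0.0145 and 6.03e-06). Mmp3 and Il6 did not pass against 3F (1.52 ± 0.46, adjusted p = 0.0606, and 0.87 ± 0.37, adjusted p = 0.232). The part of feeder cells in the differences was not tested.

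**Figure D3:**
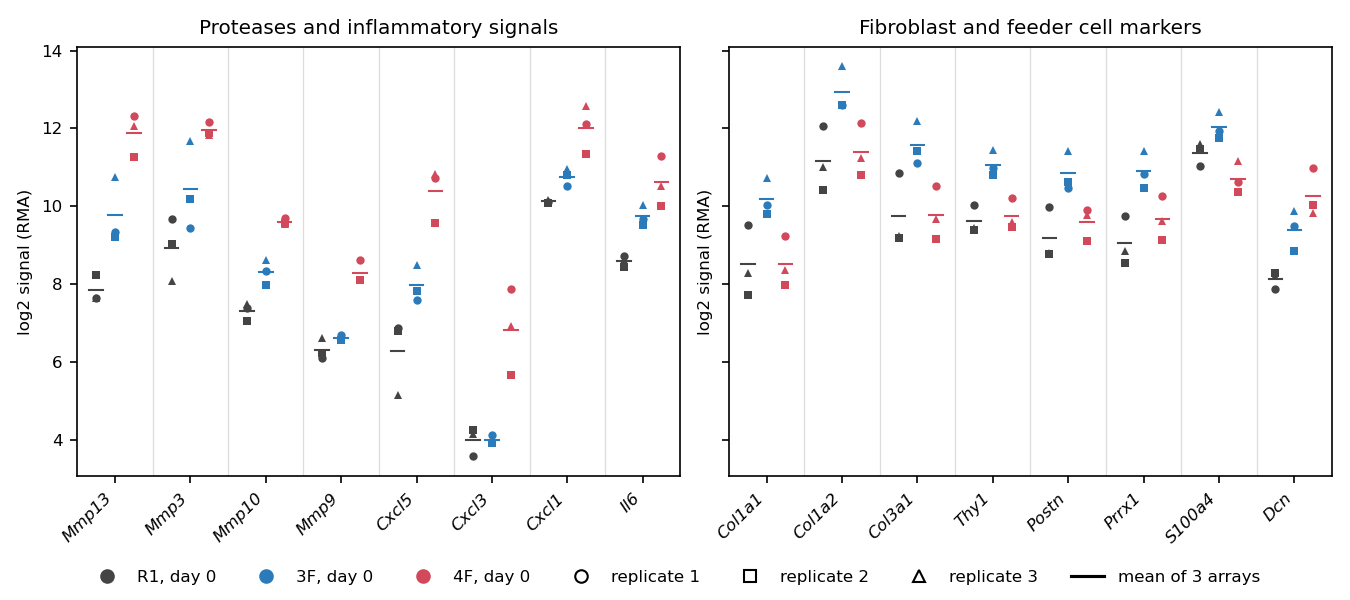
The vertical axes show the log2 RMA signal of each undifferentiated array for proteases and inflammatory signals (left) and markers of fibroblasts and feeder cells (right), by line (colour) and replicate (symbol), with bars at the means of 3 arrays. The 4F mean is the highest for all genes on the left, whereas on the right the 3F mean is the highest for every gene but Dcn, and 4F and R1 overlap for the collagens and Thy1.

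The core genes of pluripotency were not called. Pou5f1 (Oct4), the central pluripotency factor, measured 12.79, 12.98 and 12.57 in R1 and 12.52, 12.98 and 12.67 in 4F, a difference of -0.06 ± 0.52. Nanog and Sox2, its partners, differed by 0.37 ± 0.48 and 0.38 ± 0.44, with overlapping arrays. Of 15 core pluripotency genes measured, 0 were called by limma, 0 had an unadjusted p below 0.05, and the median difference was 0.14. Without R1 replicate 1, 1 of the 15 was called. The SEs of Pou5f1, Nanog and Sox2 were 0.44 to 0.52. A call needed a difference of several times its SE and at least 2-fold, so differences well above these SEs could be missed. Of the 4 classic reprogramming factors, Pou5f1, Sox2 and Myc (0.52 ± 0.19, adjusted p = 0.191) were not called and Klf4 was. Whether these probe sets read transcripts of the reprogramming transgenes was not tested.

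Genes of the naive state and of LIF signalling were higher in 4F in part. Klf4 measured 11.92, 10.67 and 10.76 in R1 and 12.53, 12.59 and 12.39 in 4F (1.38 ± 0.31, limma adjusted p = 0.0170). Esrrb, a nuclear receptor that sustains self-renewal, measured 8.54, 8.25 and 8.11 in R1 and 9.34, 9.80 and 9.43 in 4F (1.22 ± 0.22, limma adjusted p = 0.00242). Gbx2, a homeobox target of LIF and STAT3, measured 7.85, 7.20 and 6.37 in R1 and 8.84, 9.14 and 8.98 in 4F (1.84 ± 0.35, limma adjusted p = 0.00349). The 4F arrays were tightly grouped for these genes, and R1 replicate 1 was the R1 array nearest to them. The ligand Lif (1.15 ± 0.27) and the receptor subunit Lifr (1.19 ± 0.29) were also called, but for both R1 replicate 1 overlapped 4F, and the call was lost without 4F replicate 1 or 3 or R1 replicate 2 or 3. Lifr also lost it with the block on the 6 arrays alone (adjusted p = 0.0516). Klf4 lost it without 4F replicate 1 or 2 or R1 replicate 2 or 3. In the LIF and cytokine list 5 of 15 genes were called higher (Il6, Gbx2, Klf4, Lifr and Lif) and 0 lower, with a median of 0.55. The shared receptor subunit Il6st and the feedback gene Socs3 differed by 0.02 and 0.55 and were not called, nor was Stat3 (0.41 ± 0.23).

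The naive list shows how much rests on R1 replicate 1. Of 25 genes, 3 were called higher (Klf4, Esrrb and Lifr) and 1 lower, with a median of 0.55. Without R1 replicate 1, 10 were called higher and 1 lower, and the median was 0.77. Without any other single array, 1 or 2 were called higher. Tbx3, a repressor that supports the naive state, measured 9.26, 7.90 and 7.72 in R1 and 9.91, 10.01 and 9.50 in 4F (1.52 ± 0.48, adjusted p = 0.114). Its adjusted p was 0.0158 without R1 replicate 1 and 0.0174 with the block on the 6 arrays alone. Tfcp2l1 likewise measured 12.06 in R1 replicate 1, 9.95 and 10.22 in the other R1 arrays and 12.05, 11.94 and 11.19 in 4F. Against 3F, a contrast whose difference does not use the R1 arrays although its variance does, 8 of the 25 were called higher in 4F and 1 lower, among them Tbx3 (2.40 ± 0.48, limma adjusted p = 0.0039) and Klf4 (1.28 ± 0.31, limma adjusted p = 0.0189).

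Dppa3 and Fgf5 were lower. Dppa3 (Stella), a maternal factor that protects imprints and marks naive and germ cells, measured 10.91, 10.86 and 10.55 in R1 and 9.21, 9.63 and 8.54 in 4F (-1.65 ± 0.36, limma adjusted p = 0.0123), opposite to the other called naive genes. It lost its call without 4F replicate 3 or R1 replicate 2. Fgf5, the growth factor of the primed epiblast, measured 9.09, 8.81 and 9.23 in R1 and 5.67, 5.91 and 6.37 in 4F (-3.06 ± 0.67, 8.34-fold lower, limma adjusted p = 0.0134). The arrays lay more than 2 log2 units apart, yet the call was lost without 4F replicate 1 or 2 or R1 replicate 3, and its other probe set differed by -0.32. In 3F, Fgf5 measured 8.60, 8.45 and 8.66 and Dppa3 10.85, 10.79 and 10.63, close to R1. Fgf5 was the only called gene of 17 primed epiblast genes, whose median was -0.14. Fgfbp1, which releases FGFs from the matrix, was named after its values were seen: it measured 9.63, 9.89 and 9.43 in R1 and 7.63, 7.82 and 7.31 in 4F (-2.06 ± 0.25, limma adjusted p = 2.29e-05).

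Some epithelial genes, namely 3 simple keratins and 2 claudins, were lower in 4F. Krt18 and Krt8, the paired simple keratins, are neighbours on chromosome 15. Krt18 measured 8.95, 8.69 and 10.01 in R1 and at most 7.12 on the 4F arrays, whose mean was 7.04 ± 0.07 (SD, n = 3; -2.17 ± 0.50, limma adjusted p = 0.0192), and Krt8 measured 10.78, 9.87 and 11.58 in R1 and 8.83, 8.32 and 8.82 in 4F (-2.08 ± 0.55, limma adjusted p = 0.0486). Krt19, another simple keratin, differed by -1.89 ± 0.43 (limma adjusted p = 0.0180). The groups did not overlap, and R1 replicate 3 was the highest array for all 3 keratins. Krt8 lost its call with the replicate block (adjusted p = 0.0504). The tight-junction genes Cldn4 and Cldn3, neighbours on chromosome 5, were lower by 2.49-fold and 2.42-fold (limma adjusted p = 0.0220 and 0.00888). These 5 were the called genes of the 25 on the epithelial list, whose median was -0.25, and 0 were called without 4F replicate 2 or without R1 replicate 3, where the block on the 6 arrays alone called 8. They were also the called genes among 48 keratins (median -0.11) and 24 claudins (median -0.10). The keratins also lost their call without 4F replicate 1 or 3, and Cldn4 without 4F replicate 3 or R1 replicate 2. The adhesion genes Cdh1 (-0.07 ± 0.37) and Epcam (-0.85 ± 0.40, adjusted p = 0.359) were not called. In 3F the keratins were not low: Krt8 measured 12.84, 10.86 and 10.76, and 4F minus 3F was -2.83 ± 0.55 (limma adjusted p = 0.00346).

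**Figure D4:**
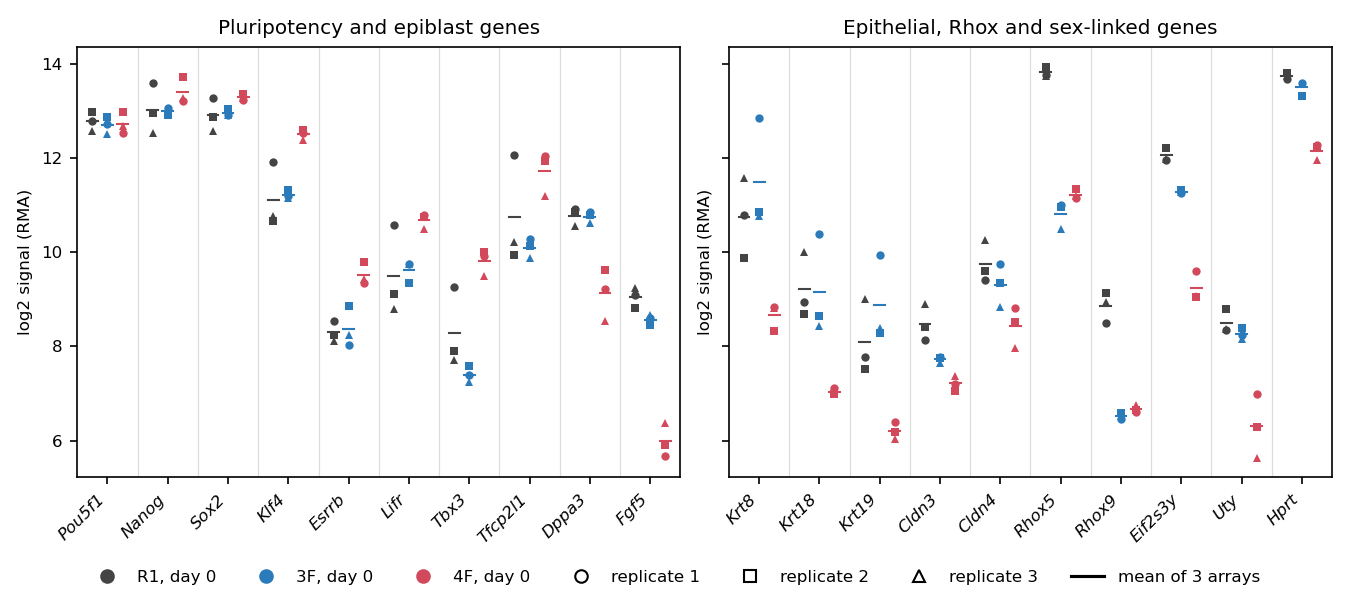
The vertical axes show the log2 RMA signal of each undifferentiated array for pluripotency and epiblast genes (left) and for epithelial, Rhox and sex-linked genes (right), by line (colour) and replicate (symbol), with bars at the means of 3 arrays. R1 replicate 1 (dark circle) lies near the 4F arrays for Lifr and Tfcp2l1, and both iPS lines lie below R1 for Rhox5 and Rhox9, whereas only the 4F arrays are low for the keratins, Fgf5, Uty and Hprt.

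The homeobox genes of the Rhox cluster on the X chromosome, which are active in germ cells and placenta and are known to be regulated by DNA methylation, were lower in 4F. Rhox5 measured 13.77, 13.94 and 13.74 in R1 and 11.14, 11.34 and 11.19 in 4F (-2.59 ± 0.21, limma adjusted p = 8.07e-08). Rhox6 measured 8.93, 9.72 and 9.28 in R1 and 6.58, 6.73 and 6.97 in 4F (-2.55 ± 0.36, limma adjusted p = 0.00013). Rhox9 measured 8.50, 9.14 and 8.95 in R1 and 6.61, 6.65 and 6.76 in 4F (-2.19 ± 0.30, limma adjusted p = 0.000108). The replicates of each line were close together and far from the other line, and these 3 of 4 measured Rhox genes kept the call whichever array was left out. The 3F cells were as low: 3F measured 11.01, 10.96 and 10.49 for Rhox5, and 4F minus 3F was 0.40 ± 0.21 (adjusted p = 0.393).

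Other testis and germ line genes moved both ways. Fmr1nb, an X-linked gene of testis and tumours, measured 10.99, 11.59 and 11.18 in R1 and 7.32, 7.85 and 7.73 in 4F (-3.62 ± 0.24, 12.3-fold lower, limma adjusted p = 2.95e-09). Pdcl2, a testis gene of the phosducin family, measured 7.03, 7.45 and 7.01 in R1 and 4.09, 4.21 and 4.27 in 4F (-2.97 ± 0.13, limma adjusted p = 1.04e-12). Stra8, the retinoic acid target at meiotic entry, went the other way, from 6.47, 7.48 and 7.06 in R1 to 9.13, 8.94 and 10.18 in 4F (2.42 ± 0.30, limma adjusted p = 2.75e-05). For all 3 the arrays of the lines were well apart. Of 24 germ line genes, 1 was called higher (Stra8) and 4 lower (Rhox5, Rhox9, the piRNA factor Tdrd12 and the meiotic gene Hormad1), with a median of 0.01. Tdrd12 (-1.51 ± 0.39) and Hormad1 (-1.18 ± 0.29) lost the call without 4F replicate 2 or R1 replicate 2 or 3, among others, and Hormad1 with the block on the 6 arrays alone (adjusted p = 0.145).

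Some other genes on the sex chromosomes were lower in 4F. R1 is an XY line. Eif2s3y, the Y copy of a translation initiation subunit, measured 11.96, 12.22 and 11.98 in R1 and 9.61, 9.04 and 9.08 in 4F (-2.81 ± 0.56, limma adjusted p = 0.00578). Uty, the Y copy of a histone demethylase, measured 8.34, 8.80 and 8.38 in R1 and 6.99, 6.28 and 5.64 in 4F (-2.20 ± 0.37, limma adjusted p = 0.00116). Uba1y, the Y copy of the ubiquitin-activating enzyme, measured 8.17, 8.51 and 7.72 in R1 and 6.12, 5.55 and 5.00 in 4F (-2.57 ± 0.30, limma adjusted p = 1.46e-05). These 3 neighbours were low on all 4F arrays and were the called genes among 9 measured on the Y chromosome. In 3F, Eif2s3y measured 11.26, 11.32 and 11.27 and Uty 8.24, 8.39 and 8.16, nearer to R1. The X-linked Xist, the RNA that coats an inactive X, overlapped between the lines (7.59, 8.14 and 8.40 in R1, 8.32, 7.77 and 8.72 in 4F). Of 617 genes measured on the X chromosome, 2 were called higher and 11 lower, 3 of these in the Rhox cluster, with a median of -0.05, where 0.478% of all genes were called lower. Klhl13, an adaptor of a ubiquitin ligase, was among the lower ones (-2.35 ± 0.20, limma adjusted p = 1.04e-07), from 13.46 to 13.56 in R1 and 10.75 to 11.60 in 4F. Hprt, the purine salvage enzyme, measured 13.67, 13.81 and 13.74 in R1 and 12.27, 12.24 and 11.96 in 4F (-1.58 ± 0.33, limma adjusted p = 0.00878). It was not called without 4F replicate 3 (adjusted p = 0.0502).

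The largest drops included genes of several kinds. Aass, which starts lysine breakdown in mitochondria, measured 11.01, 11.62 and 10.82 in R1 and 6.72, 7.93 and 7.90 in 4F (-3.63 ± 0.37, 12.4-fold lower, limma adjusted p = 1.4e-06). Dpys, which breaks down pyrimidines, measured 9.63, 9.70 and 9.18 in R1 and 6.13, 6.68 and 6.72 in 4F (-2.99 ± 0.28, limma adjusted p = 4.03e-07), while its other probe set of opposite sign stood at 0.05. Slc40a1 (ferroportin), the exporter of iron, measured 9.62, 9.85 and 10.01 in R1 and 7.40, 7.29 and 7.44 in 4F (-2.45 ± 0.25, limma adjusted p = 1.4e-06). All 3 kept their call whichever array was left out. The 3F cells were lower still for Aass (6.42, 6.17 and 5.91) and Dpys (4.67, 4.44 and 4.01), and in between for Slc40a1 (8.78, 8.81 and 8.74). Calml4, a relative of calmodulin, and Prrc1, a Golgi protein, were lower by 8.58-fold and 6.31-fold (limma adjusted p = 0.000164 and 1.98e-09), although 6 of 7 Prrc1 probe sets agreed in sign and only 1 was called. Igfbp3, which binds insulin-like growth factors, was lower by 5.46-fold (limma adjusted p = 0.0441) and kept the call only when R1 replicate 1 was the array left out. On the higher side, Ipp, a kelch protein, measured 7.70, 7.93 and 7.73 in R1, 10.85, 10.65 and 10.17 in 4F and 11.23, 11.21 and 11.05 in 3F (4F minus R1 2.77 ± 0.25, limma adjusted p = 2.29e-07).

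Set side by side over all 204 genes, the contrasts sort these genes in different ways. Of the 117 genes higher in 4F than in R1, 52 were also called higher against 3F and 2 lower, and 28 were called higher in 3F than in R1. Of the 87 lower genes, 24 were also called lower against 3F and 3 higher, and 37 were called lower in 3F than in R1. The first contrast shares the 4F arrays with 4F minus R1 and the second shares the R1 arrays, so these counts are descriptions. For Ifit1 and Cxcl3 the 4F arrays lay above those of both other lines, and for Rhox5 both iPS lines lay below R1 and 4F minus 3F did not pass. Aass, Fmr1nb and Dpys were low in both iPS lines and lower in 3F, with 4F minus 3F at 1.35 ± 0.37, 1.48 ± 0.24 and 2.14 ± 0.28 (limma adjusted p = 0.0360, 0.000713 and 5.42e-05).

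Most of these genes were not called in embryoid bodies. Of the 204 genes, 40 were called the same way at day 5 (23 higher, 17 lower) and 7 the opposite way, where 5.45% of all genes were called (2.31% higher, 3.14% lower). At day 11, when the RNA integrity index was higher on all 4F arrays than on all R1 arrays, 25 were called the same way (13 higher, 12 lower) and 22 the opposite way, where 8.31% of all genes were called (2.39% higher, 5.92% lower). Without R1 replicate 1 of day 0 the same-way counts were 76 and 40, and without R1 replicate 3 and R1 replicate 2 they were 23 at day 5 and 16 at day 11. Ifit1 differed by 4.11 at day 0, -0.23 ± 0.41 at day 5 and -2.17 ± 0.41 at day 11 (limma adjusted p = 0.844 and 0.000566 for the later days). The means moved in both lines: R1 was 5.04 ± 0.27 (SD, n = 3), 4.65 and 7.51 on days 0, 5 and 11, and 4F was 9.15 ± 0.59, 4.41 and 5.34. Usp18 went from 4.45 to -1.88 ± 0.52 (limma adjusted p = 0.0191) and -0.71 ± 0.52. Mmp13 went from 4.04 to 1.40 ± 0.32 (limma adjusted p = 0.00507) and 0.00 ± 0.32, with both lines at 3.80 and 3.81 on day 11, far under their day 0 levels. Cxcl5 fell to 0.32 and -0.05, and Rhox5 to -0.13 and -0.03.

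A small set was called the same way on all days. Of the 117 genes called higher at day 0, 93 had the same sign at day 5 and 62 at day 11, and of the 87 called lower, 45 and 51 did. The 10 genes called the same way at days 0, 5 and 11 were Bcl11b, Cipc, Fzd5, Npl and Pmaip1, higher in 4F, and Eif2s3y, Gbp2b, Hprt, Lypd6 and Uty, lower. Pmaip1 (Noxa), which triggers apoptosis downstream of p53, measured 9.46, 8.97 and 8.94 in R1 and 10.42, 10.89 and 10.79 in 4F at day 0, and differed by 1.57 ± 0.22, 1.36 ± 0.22 and 1.62 ± 0.22 over the 3 days (limma adjusted p = 0.00013, 0.000289 and 2.12e-05). Fzd5, a Wnt receptor, differed by 1.70 ± 0.43, 1.38 ± 0.43 and 1.80 ± 0.43, but its call at day 0 held only when R1 replicate 1 was the array left out. The call of Npl, a lyase of sialic acid, at day 0 was lost without R1 replicate 1 or 3 or 4F replicate 2 or 3. Bcl11b, a zinc-finger repressor, differed by 1.37 ± 0.24, 2.28 ± 0.24 and 1.41 ± 0.24. These gaps stayed within about 1 log2 unit of each other over the days. On the lower side, Eif2s3y differed by -2.81 ± 0.56, -4.32 ± 0.56 and -3.75 ± 0.56 and Uty by -2.20 ± 0.37, -3.58 ± 0.37 and -3.53 ± 0.37, so that both Y-linked gaps were larger in embryoid bodies, by estimates whose change did not pass at day 11 (adjusted p = 0.487 and 0.0897). Hprt differed by -1.58 ± 0.33, -2.52 ± 0.33 and -1.96 ± 0.33, and Lypd6, a modulator of Wnt signalling, by -1.66 ± 0.31, -1.63 ± 0.31 and -1.34 ± 0.31.

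**Figure D5:**
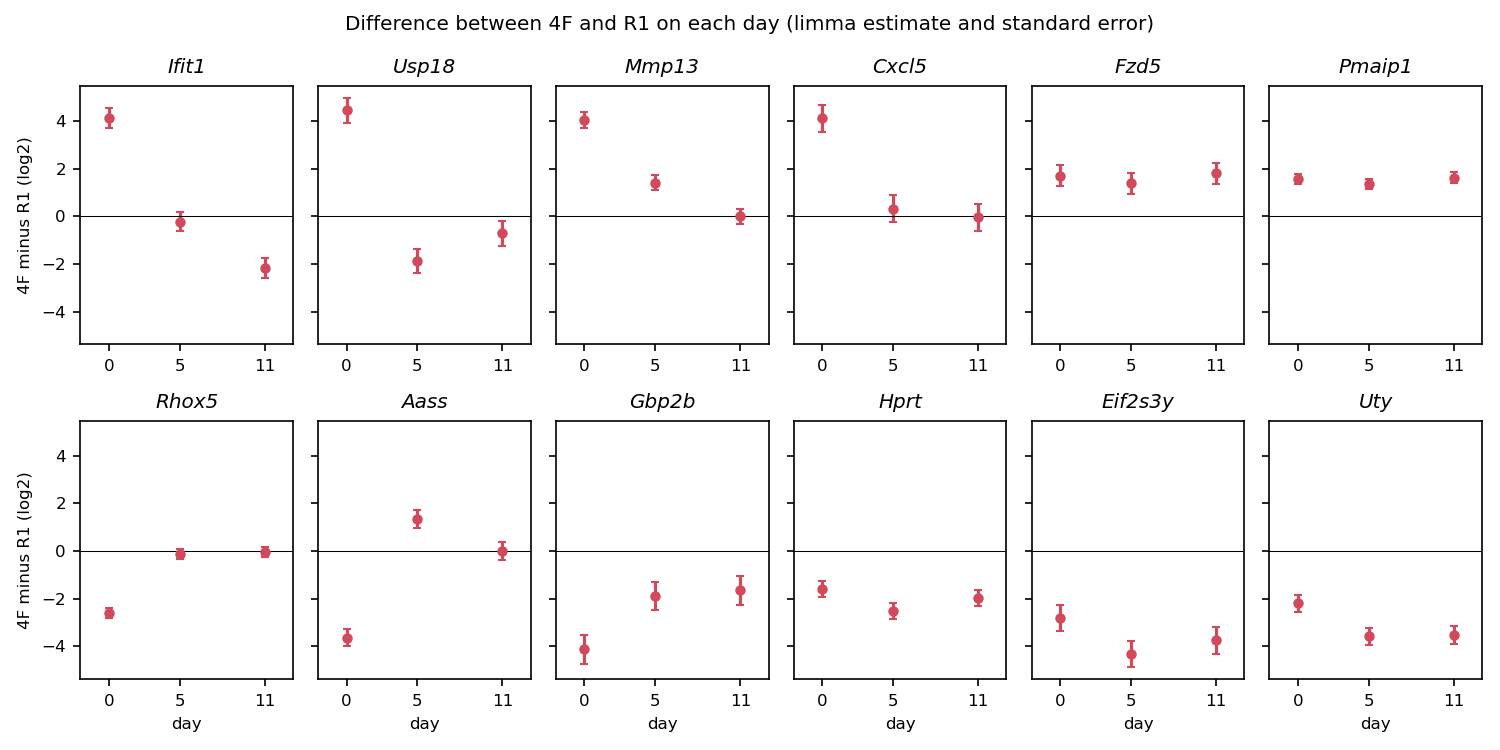
Each panel shows the difference 4F minus R1 (vertical axis, log2, points with standard errors from limma, 3 arrays against 3) of a gene on days 0, 5 and 11 (horizontal axis). Ifit1, Usp18, Mmp13, Cxcl5, Rhox5 and Aass leave their day 0 values, whereas Fzd5 and Pmaip1 stay above 0 and Gbp2b, Hprt, Eif2s3y and Uty below it on all 3 days.

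The core pluripotency genes showed the reverse course. As given above 0 of the 15 were called at day 0, and 11 were called higher in 4F at day 5 and 11 at day 11, with medians of 2.04 and 2.10 against 0.03 and -0.10 over all genes. Pou5f1 differed by -0.06 ± 0.52, 2.17 ± 0.52 and 2.56 ± 0.52 (limma adjusted p = 0.984, 0.00672 and 0.000923). Its mean in R1 went from 12.78 to 10.17 and 7.35, and in 4F from 12.72 to 12.34 and 9.91. The naive list had 12 of 25 called higher at day 5 and 10 at day 11, with 1 lower on each day. Over the interferon list, 1 gene was called higher and 1 lower at day 5, and 0 higher and 7 lower at day 11. The change of the difference from day 0 to day 11 itself was called for 1728 genes (9.50%), and for 246 with the RNA integrity index as a covariate. That index moved with the line at day 11: it was 2.44 to 2.89 on the 4F arrays and 1.75 to 2.16 on the R1 arrays. The single genes' day 11 differences with the index as a covariate are not given here.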

How the data were processed

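Total RNA of 27 samples was hybridised to Affymetrix mouse arrays, 1 array a sample, and 6 arrays form the main comparison. Per the submitters' processing notes, the authors summarised the arrays with RMA (version not given); the deposited values are log2 signals per probe set, from 3.03 to 15.64 on these 6 arrays. Scanner files were not used here. Of 45101 probe sets, 34945 have 1 gene symbol in GEO's platform annotation, 932 several and 9160 none; each of 18193 genes was read from its brightest probe set (mean over 27 arrays), and 9010 genes have several. Genes on probe sets with several symbols or none were not analysed here.

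Group means of all 9 line and day groups were fitted with limma 3.58.1 (R 4.3.3; lmFit and eBayes), p-values were adjusted by Benjamini-Hochberg over all genes, and calls needed an adjusted p below 0.05 together with a 2-fold difference. In simulated data for this comparison with 18193 genes, 45, 48, 47 and 50 of 50 genes changed by 1.25, 1.5, 2 and 3 (log2) were called, and 0 of 17993 unchanged genes. The simulated noise was independent, with the same SD on every array for a gene. It held no outlying array such as R1 replicate 1, so these counts do not give the power or the false calls on the real arrays. The deviations of same-numbered 4F and R1 arrays from their group means correlated at 0.48, 0.25 and 0.33, all above 0.1. The replicate numbers were therefore also fitted as a block, although 4F replicate 3 correlated with R1 replicate 2 as well, at 0.40. The labels do not say that the samples are paired, and the main calls come from the fit without the block. Blocked values stand beside the results they change.

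The members, the 32 gene lists and the tests were chosen with earlier results of these data known. Named genes are the 15 largest rises and 15 largest falls among called genes whose arrays do not overlap, up to 5 called members of each list, a fixed set of markers and genes called on all 3 days. Other genes, named as family members, neighbours, partners or listed genes that were not called (such as Aim2, Mmp9, Gbp2, Irf1, Stat2, Mx1, Ccl2, Cdh1, Tfcp2l1, Fgfbp1), were chosen after their values were seen. Promoter windows are RefSeq's (GRCm38.p6), and symbols were checked against RefSeq, where 34741 probe sets matched. Alternatives were other normalizations, probe set rules, fits, a covariate, the replicate block and leaving out each array. The number of arrays limits the precision.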

Additional observations from a re-analysis of the deposited data

Results flagged for a closer look

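For 12 named genes the difference between 4F and R1 itself differed between day 0 and a later day, tested as a change of the difference (limma, all 27 arrays) with the sign of the difference turning over. The values that follow are that change on the log2 scale. From day 0 to day 5 the difference of Usp18 changed by -6.33 and that of Sox17, an endoderm factor, by -5.84. Over the same interval the differences that began below 0 changed by 4.98 for Aass, 4.21 for Dpys, 2.94 for Wnt8a, a Wnt ligand of the primitive streak, and 2.75 for Tdrd12. From day 0 to day 11 the interferon-response genes changed by -6.28 for Ifit1, -4.76 for Rtp4, -3.82 for Xaf1 and -3.76 for Ifit3. The matrix genes Dcn and Tgfbi, an adhesion protein induced by TGF-beta, changed by -5.29 and -2.70 over that interval. At day 11 the RNA integrity index was 2.44 to 2.89 on the 4F arrays and 1.75 to 2.16 on the R1 arrays. With the index as a covariate, a change from day 0 to day 11 was called for 246 genes, against 1728 without it. The values of the single genes with this covariate are not given here. Each of the 3 arrays of a line on a day is an embryoid body or stem cell sample, so these changes compare mixtures of cells, and what share of them lies in cell composition was not tested.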

How the results depend on the processing

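No count or named gene changed direction under any alternative. The 204 genes called between 4F and R1 at day 0 became 404 with array weights, 134 with only the 6 arrays and 130 with treat against a 1.2-fold change, and ranged from 131 to 449 when each array was left out. Those settings gave 235, 67 and 75 genes higher in 4F and 169, 67 and 55 lower, with ranges of 71 to 303 and 59 to 146, and all probe sets gave 176 higher. With the replicate block the total was 216 over all arrays (199 shared with the 204) and 291 over the 6 arrays (197 shared, 133 lower), and for the genes named here it changed no call other than those given beside their values. Other normalizations, other probe set rules, the RNA integrity index as a covariate and a variance trend gave 156 to 279. The 40 genes called the same way at day 5 became 83 with array weights, 24 with only the compared arrays and 21 with treat (23 to 76 without single arrays), and the 25 at day 11 became 54 with array weights and 16 with the mean of probe sets (16 to 40). The 360 genes between 4F and 3F became 615 with array weights, 553 with the replicate block and only the compared arrays and 228 with treat (192 without 4F replicate 2 to 461 without 4F replicate 1). The 1728 genes whose difference changed by day 11 became 246 with the RNA integrity index and 2606 with array weights (1200 to 2453). The cause of these shifts was not tested. Of 87 named genes, 66 of them called, 23 fell below the threshold with treat, 17 with only the 6 arrays, 12 with the mean of probe sets, 8 with quantile normalization and 17 to 20 without any 1 array other than R1 replicate 1, where 3 did. Quantile normalization of the 6 arrays and the use of all probe sets were added after seeing the data. Small differences, and genes near the limit of 2-fold, are bounded by 3 arrays a line.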

Other observations

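Genes of the differentiated lineages were largely level in the undifferentiated cells. By limma, 0 of 18 genes of the primitive streak and mesoderm, 0 of 30 cardiac, 0 of 15 smooth muscle, 0 of 17 neural and 0 of 26 endothelial and blood genes were called between 4F and R1, with 0, 2, 3, 2 and 1 at an unadjusted p below 0.05. That level was reached by 2390 of all 18193 genes. Tnnt2, cardiac troponin T, differed by 0.25 ± 0.65 at day 0 and by -4.05 ± 0.65 at day 11 (limma adjusted p = 0.926 and 0.000121). Of 21 endoderm genes, 2 were called higher: Sox17, a factor that specifies endoderm, measured 5.18, 4.92 and 4.93 in R1 and 6.35, 6.69 and 6.98 in 4F, and the endocytic adaptor Dab2 was 2.63-fold higher (limma adjusted p = 0.0401 and 0.00508). Sox17 was lower in 4F by day 5 (-4.17 ± 0.43, limma adjusted p = 3e-06). Krt8 and Krt18 were the called genes among 18 of the trophoblast, both lower.

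Signalling lists had few called genes. In the Wnt list 1 of 24 was called higher, the receptor Fzd5, and 1 lower, the ligand Wnt8a, from 6.71, 7.03 and 7.55 in R1 to 4.96, 5.24 and 5.54 in 4F (-1.85 ± 0.34, limma adjusted p = 0.00325). In the FGF and ERK list Etv4, a target of FGF signalling, was higher (1.07 ± 0.21), and Fgf5 and the receptor Fgfr2 (-1.23 ± 0.32) were lower among 21, Fgfr2 not with the replicate block (adjusted p = 0.0511). In the Nodal, BMP and TGF-beta list Tgfbi was the called gene of 29 (1.40 ± 0.36, limma adjusted p = 0.0431). Pmaip1 was the called gene of 18 p53 targets, and Cpt1a, which imports fatty acids into mitochondria, of 15 genes of fatty acid oxidation (1.28 ± 0.30, limma adjusted p = 0.0229). The detoxifying transferases Gstm2 and Gstt1 were lower by 2.27-fold and 2.01-fold among 32 glutathione and metallothionein genes, and Aass was the called gene of 24 in amino acid metabolism. The calls of Sox17, Tgfbi and Cpt1a at day 0 held only when R1 replicate 1 was the array left out, and those of Etv4, Fgfr2, Gstm2 and Gstt1 were lost without 1 of several arrays. Of 11 reprogramming factors 2 were called higher, and 2 of 13 sex-linked genes lower. By limma, 0 of 21 cell cycle, 0 of 20 glycolysis, 0 of 23 Polycomb, 0 of 23 Hox, 0 of 15 basement membrane and 0 of 6 two-cell-stage genes were called, with 7, 2, 5, 1, 1 and 2 at an unadjusted p below 0.05. That level was reached by 2390 of all 18193 genes.

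Imprinted genes, which are read from 1 parental copy, had more called genes at the later days than at day 0. So did all genes together, of which 1.12%, 5.45% and 8.31% were called on days 0, 5 and 11. Of 31 measured, the called gene at day 0 was Dcn, which is also counted above among the fibroblast and feeder genes. The median was -0.10, the arrays did not overlap for 12 genes and 10 had an unadjusted p below 0.05. Over all genes, 17.1% did not overlap and 2390 of 18193 had an unadjusted p below 0.05. At day 5, 1 was called higher and 10 lower, and at day 11, 3 higher and 8 lower, with medians of -0.70 and -0.55. Among all genes, 2.31% were called higher and 3.14% lower at day 5, and 2.39% and 5.92% at day 11. Rian, a noncoding RNA of the Dlk1-Dio3 region, measured 10.05, 10.94 and 10.90 in R1 and 9.86, 9.75 and 9.84 in 4F, a difference of -0.81 ± 0.29 that did not pass (adjusted p = 0.179). Without R1 replicate 1 it was -1.11 with an adjusted p of 0.0250. It was called lower at day 5 (-2.01 ± 0.29) and day 11 (-2.26 ± 0.29), with limma adjusted p-values of 8.4e-05 and 9.25e-06. Its neighbour Meg3 differed by -0.78 ± 0.45 at day 0 (adjusted p = 0.494) and -1.68 ± 0.45 at day 5 (limma adjusted p = 0.0150). Igf2, the fetal growth factor, overlapped at day 0 (-0.30 ± 0.58) and was lower at day 5 (-3.94 ± 0.58, limma adjusted p = 0.000107). Among 17 genes of DNA methylation, Dppa3 was the called gene, and the methyltransferase Dnmt3b differed by -0.45 ± 0.33 (adjusted p = 0.618).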
